A study of Homo sapiens with 2 samples.

Results

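ETS-family transcription factor genes were followed in a list of ERG binding sites from human F36P erythroleukaemia cells. The 10 genes were ERG, FLI1, ETS1, ETS2, ELF1, ELF2, ETV2, ETV6, ELK4 and SPI1, out of 19974 protein-coding genes on chromosomes 1 to 22 and X. They were proposed as ETS genes with earlier results of these data known, and each was given the peaks whose summit fell inside it or at most 10 kb away, or else its nearest peak. F36P cells carried either the retroviral construct MSCV-PIG-AM-ERG, which expresses ERG joined to an AM tag, or the empty MSCV-PIG vector, and both cultures were kept in puromycin (1 µg/ml) for 4 days. An antibody to the tag was used to precipitate chromatin, giving 1 library for AM-ERG and 1 for Vector. ERG was thus overexpressed, and the tag marks the construct's ERG, not that made from the cells' own gene.

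The deposited list holds 1645 peaks on hg38, of which 1564 lie on chromosomes 1 to 22 and X. The sources used here do not say on which library it was called, or whether the other served as its control. Values therefore belong to the list, and which library gave the background of a fold is not stated. There is no replicate spread, no test of AM-ERG against Vector was made here, and read depth is not given. Each fold enrichment is the authors' value over the local background at the summit. The fragments at a summit and the local background were recovered from the fold and the p-value. In the list the median fold was 4.66, the median summit held 21 fragments and the median background was 3.52 fragments. Intervals are exact Poisson intervals at 95% of the fragments at the summit. They cover counting error of these fragments only, with the background held fixed, and a summit is the highest point of its peak. For these reasons they understate the error.

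ETS factors share a DNA-binding domain that recognises a core of GGAA, with flanking bases that differ between members. They include activators and repressors, and several direct blood formation: ERG and FLI1 in stem cells, megakaryocytes and endothelium, SPI1 (PU.1) in myeloid and B cells, ETV6 in stem cells, and ETV2 in the first blood and endothelial progenitors. Genes of the family are known to hold ETS sites of their own, so that family members can bind at each other's regulatory elements.

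A peak was listed at 7 of the 10 genes: ERG, FLI1, ETS1, ETS2, ELF2, ETV2 and ELK4. ELF1, ETV6 and SPI1 had none. Over all protein-coding genes 9.58% had a peak by this rule, and over genes of like length the mean share was 9.88%. The 10 were proposed with the peaks known, so their share carries no weight of its own. The count was also 7 within 5 kb (8.38% of all genes) and without peaks on a raised background (9.23%). It was 6 among the upper 50% of peaks by fold (5.49%) and 4 among the upper 50% by −log10 q (5.0%), and within 50 kb it was 8 (17.7%). The 7 genes held 9 peaks. Their fold enrichments were 2.40 to 11.9 with a median of 4.76, and 6 of the 9 were above the median of the list.

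**Figure D1:**
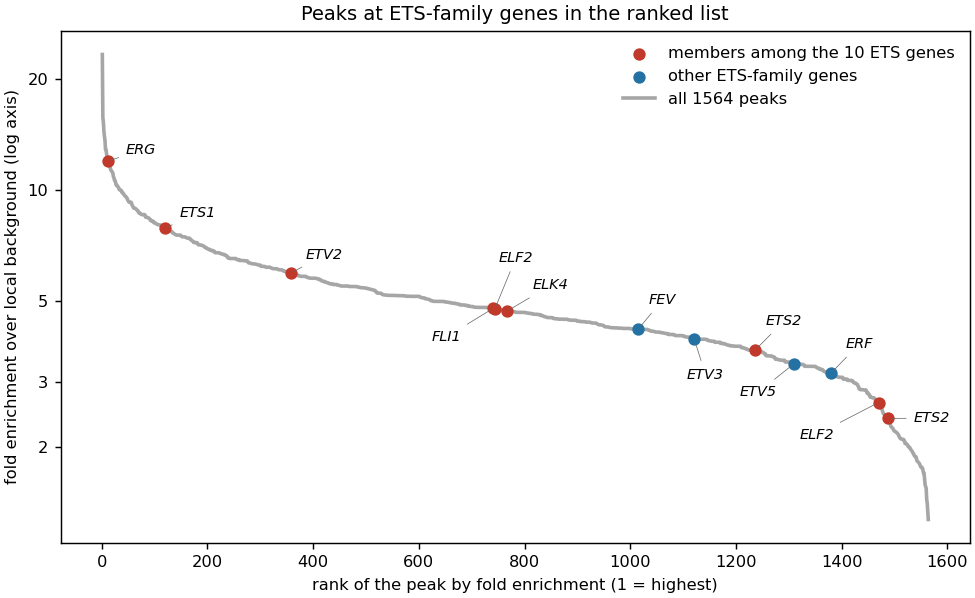
Fold enrichment (log axis) against rank for the 1564 peaks (grey line), with the 9 peaks at members of the 10 ETS genes in red and the 4 at other ETS-family genes in blue. ERG is at rank 11 and ETS1 at rank 119, while the lower peaks of ELF2 and ETS2 are at ranks 1470 and 1488.

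ERG, the factor that was tagged, held the strongest peak of the group within its own gene. The gene lies on chromosome 21 (38367261 to 38661783, minus strand), and its only peak was at 38376435 to 38376927. The summit held 53 fragments (39.7 to 69.3) on a background of 3.52, a fold of 11.9 (9.0 to 15.6). Its −log10 p was 43.4 and its −log10 q 37.5. That placed it at rank 11 of 1564 by fold, rank 20 by q and rank 135 by fragments. The background there equalled the median of the list, so the high fold came with many fragments and not with a low background.

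The ERG peak was far from every listed start of the gene. The RefSeq table of promoters used here holds 4 starts, of which a pair is 27 bp apart. The summit was 121.9 kb downstream of that pair, 208.3 kb downstream of the next start and 284.1 kb downstream of the farthest, and 9351 bp from the gene's downstream end. No peak was listed at any of the 4 starts. The gene's upper end lies beyond all 4, 285.2 kb from the summit, so a start may be missing from them. Whether the summit is in an exon or an intron was not determined, since exons were not used here. The construct carries ERG, and which exons it shares with the gene near the summit was likewise not determined.

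The ERG +85 element, a stem cell enhancer known to be bound by ERG and other stem cell factors, is named for its distance in kb from the beginning of the gene. No source used here says from which base that distance is counted, so the place 85 kb downstream of each listed start was computed. The nearest of these places was 36.9 kb from the ERG summit, and the others were 123.3 and 199.1 kb away. No listed peak was within 10 kb of any of them. The absence of a listed peak at those places is a statement about this list and its threshold, not about binding.

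ETS1 and FLI1 lie next to each other on chromosome 11, and each held 1 peak inside the gene. ETS1 encodes the founding member of the family, active in lymphocytes and endothelium. Its gene spans 128458765 to 128587558, and the peak at 128548607 to 128548885 had its summit 90.0 kb and 38.8 kb from the ends. The summit held 29 fragments (19.4 to 41.6) on a background of 2.82, a fold of 7.86 (5.35 to 11.2), with a −log10 q of 15.2 and rank 119. By fold this peak lay above 92.4% of the list, although at 279 bp it was among the narrow ones (median 390 bp). The counting intervals of ETS1 and ERG overlap.

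FLI1, the closest relative of ERG, spans 128685132 to 128813267. Its peak, at 128694939 to 128695304, had the summit 9958 bp from the lower-coordinate end. It held 14 fragments (7.65 to 23.5) on a background of 2.14, a fold of 4.77 (2.75 to 7.79), with a −log10 q of 4.08 and rank 741. The summit also lay in SENCR, a long noncoding RNA gene known to overlap the 5′ part of FLI1 in antisense, 933 bp downstream of its annotated start. The fold at FLI1 was near the median of the list. Its interval does not reach that of ERG.

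**Figure D2:**
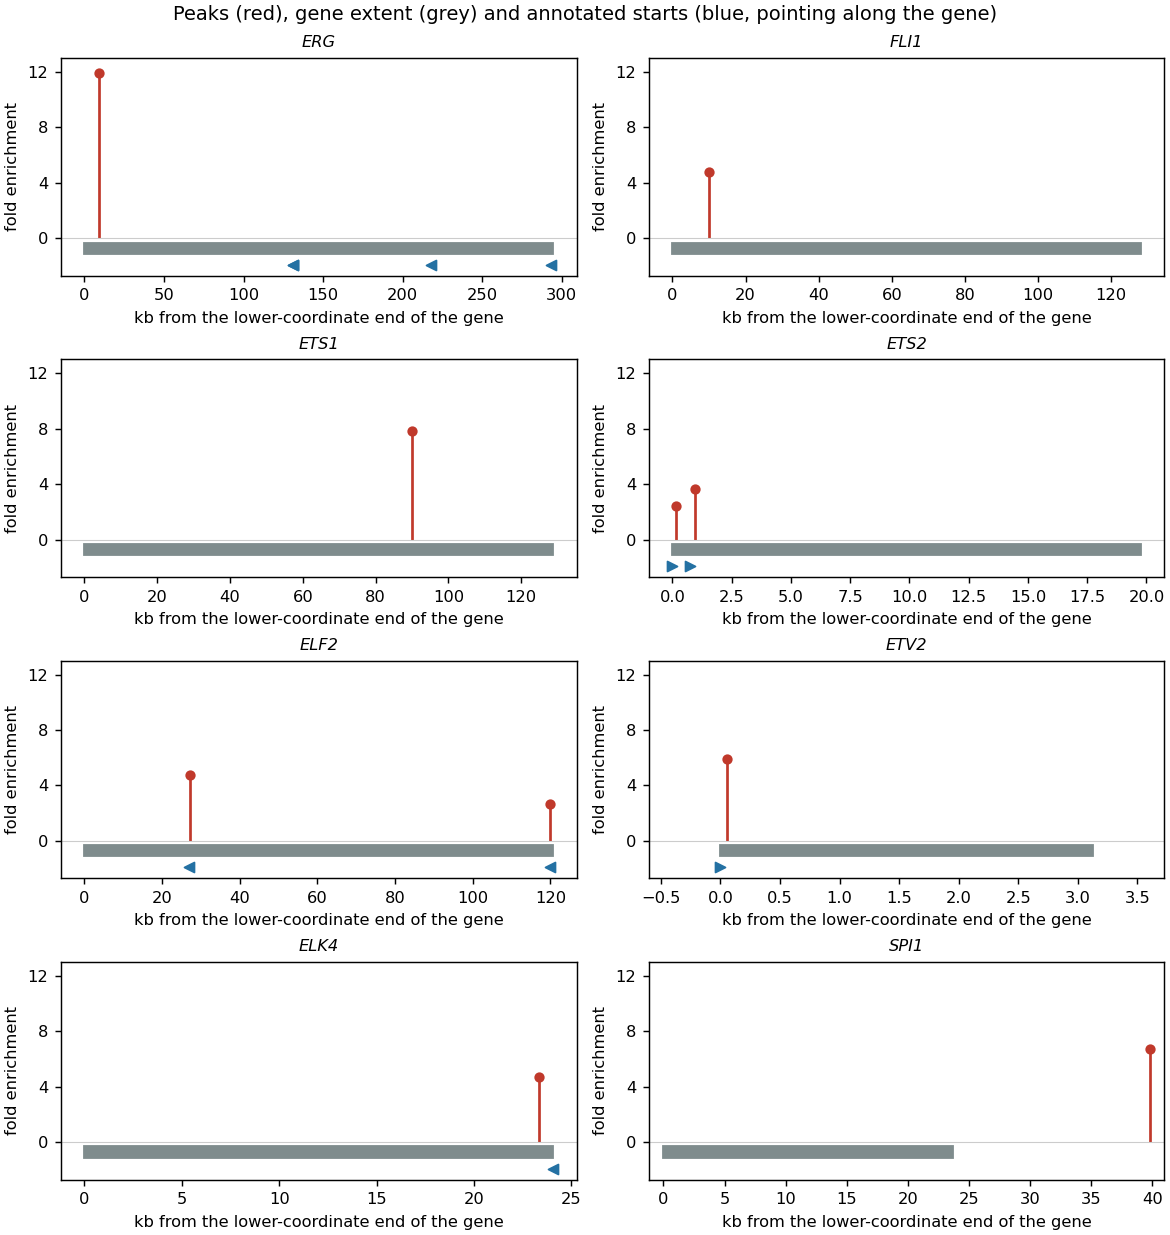
Fold enrichment of each peak (red) along 8 of the ETS genes, with the gene drawn in grey from its lower-coordinate end in kb and the annotated starts as blue arrowheads pointing along the gene, where listed. The ERG peak (11.9) is far from the listed starts, and ELF2 has a peak at each of its listed starts (4.76 and 2.65). The peak nearest to SPI1 (6.71) is outside the gene, 16.1 kb beyond its upper end.

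ETV2, ELF2, ETS2 and ELK4 had their peaks within 1 kb of an annotated start. Of the 7 of the 10 genes with a start in the RefSeq table of promoters these were 4, where 6.41% of all protein-coding genes in that table had such a peak. The 10 were proposed with the peaks known, so this count carries no weight of its own either. FLI1, ETS1 and SPI1 have no entry there. A promoter of each of these 4 genes is printed below because a peak lies on or beside it (for ELF2 and ETS2, that of the 2 starts whose 300 bases a peak overlapped), together with the ERG promoter nearest to its peak, which had no peak. Each sequence runs from 250 bases before to 50 after the start on GRCh38.p14, from RefSeq, with the core GGAA and its reverse complement TTCC in capitals.
ETV2 chr19:35641495-35641794 (+ strand): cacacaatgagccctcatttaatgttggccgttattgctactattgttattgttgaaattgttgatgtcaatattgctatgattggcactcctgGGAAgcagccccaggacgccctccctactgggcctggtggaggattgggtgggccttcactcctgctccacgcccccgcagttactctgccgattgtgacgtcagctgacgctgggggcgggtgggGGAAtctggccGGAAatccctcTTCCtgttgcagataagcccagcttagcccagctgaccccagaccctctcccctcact
ELF2 chr4:139084175-139084474 (- strand): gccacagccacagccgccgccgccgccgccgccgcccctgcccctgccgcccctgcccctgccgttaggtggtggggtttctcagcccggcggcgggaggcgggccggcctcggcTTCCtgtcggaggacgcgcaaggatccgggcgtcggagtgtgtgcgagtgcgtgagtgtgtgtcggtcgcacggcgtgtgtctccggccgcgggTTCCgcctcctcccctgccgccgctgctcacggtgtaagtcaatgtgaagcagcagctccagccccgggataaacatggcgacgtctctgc
ETS2 chr21:38805679-38805978 (+ strand): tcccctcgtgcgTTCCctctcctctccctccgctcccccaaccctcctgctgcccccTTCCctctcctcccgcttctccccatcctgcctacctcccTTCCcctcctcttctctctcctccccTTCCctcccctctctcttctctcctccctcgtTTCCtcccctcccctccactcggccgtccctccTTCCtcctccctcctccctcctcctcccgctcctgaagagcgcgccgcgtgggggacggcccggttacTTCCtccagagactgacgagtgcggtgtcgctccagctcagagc
ELK4 chr1:205631962-205632261 (- strand): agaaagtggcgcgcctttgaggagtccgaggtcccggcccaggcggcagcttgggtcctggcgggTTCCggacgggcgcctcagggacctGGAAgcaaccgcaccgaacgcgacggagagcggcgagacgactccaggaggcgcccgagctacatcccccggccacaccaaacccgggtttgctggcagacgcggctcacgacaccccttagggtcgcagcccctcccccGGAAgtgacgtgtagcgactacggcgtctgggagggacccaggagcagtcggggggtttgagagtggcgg
ERG chr21:38498428-38498727 (- strand): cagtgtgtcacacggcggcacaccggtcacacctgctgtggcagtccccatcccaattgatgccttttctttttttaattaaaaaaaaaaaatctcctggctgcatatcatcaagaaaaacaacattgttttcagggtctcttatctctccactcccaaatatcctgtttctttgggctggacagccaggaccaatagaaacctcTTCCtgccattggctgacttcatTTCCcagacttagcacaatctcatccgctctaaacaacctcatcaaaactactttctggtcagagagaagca

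ETV2 encodes a factor known for its short activity at the origin of blood and endothelium in the embryo. Its peak, at 35641615 to 35642255 on chromosome 19, was the strongest of the 4 genes, with 22 fragments (13.8 to 33.3) on a background of 2.87, a fold of 5.94 (3.82 to 8.86), a −log10 q of 8.6 and rank 358. The summit was 52 bp downstream of the single listed start. The peak covered 180 of the 300 bases printed, from the middle of the sequence to its end. Those bases hold 3 of its 4 GGAA cores, among them the 1 match to the longer ETS motif CCGGAA, at positions -21 to -16 from the start.

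ELF2 encodes a factor whose isoforms are known to act in opposite directions on blood cell genes. The gene (chromosome 4, 139057220 to 139177915, minus strand) has 2 listed starts 93.0 kb apart, and each had a peak. The gene's upper end lies beyond both, so a start may be missing. At the downstream start, the peak at 139084056 to 139084654 held 32 fragments (21.9 to 45.2) on a background of 5.94, a fold of 4.76 (3.30 to 6.66), with the summit 262 bp upstream of the start and a −log10 q of 9.38. It covered all 300 bases of the promoter printed, which has 2 GGAA cores and no CCGGAA. Measured from the gene's ends alone, this peak would count as internal, 27.3 kb from the nearer end.

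At the upstream start of ELF2 the peak was weaker. The one at 139176632 to 139177003 held 24 fragments (15.4 to 35.7) on a background of 8.45, a fold of 2.65 (1.73 to 3.89), with the summit 216 bp downstream of the start. The 300 bases around this start hold 0 GGAA cores, and none of them was in the peak. Its q was 0.0105, where the largest in the list was 0.0474. The summit was 1 bp from the edge of the peak, and it also lay in LOC105379412, a noncoding gene whose start was 847 bp away. The fragments at the 2 ELF2 peaks have overlapping intervals, and the lower fold went with a background above 2 times the list's median.

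ETS2 encodes a relative of ETS1 that responds to growth factor signalling. Its gene is the next of the family after ERG on chromosome 21 (38805183 to 38824955, plus strand), with starts 746 bp apart, and a peak lay downstream of each. The first, at 38805335 to 38805631, held 25 fragments (16.2 to 36.9) on a background of 9.86, a fold of 2.40 (1.58 to 3.49), 158 bp downstream of the first start. Its q of 0.0346 was close to the limit of the list. The second, at 38805974 to 38806467, held 21 fragments (13 to 32.1) on a background of 5.0, a fold of 3.67 (2.33 to 5.52), 189 bp downstream of the second start.

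The 2 ETS2 peaks were 342 bp apart. The second covered only 5 of the 300 bases printed for ETS2, which hold 7 GGAA cores and no CCGGAA, so those cores lie upstream of the peak. The 300 bases around the first start hold 4 GGAA cores and no CCGGAA, and none of them was in a peak. By fold the ETS2 peaks were at ranks 1236 and 1488.

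ELK4 encodes a ternary complex factor that acts with the serum response factor at growth-responsive genes. Its peak on chromosome 1, at 205631130 to 205631668, held 14 fragments (7.65 to 23.5) on a background of 2.20, a fold of 4.68 (2.70 to 7.65), with a −log10 q of 3.95 and rank 767. The summit was 741 bp downstream of the start, and none of the 300 bases printed was in the peak. That promoter holds 2 matches to CCGGAA, and the match at positions -22 to -17 extends to CCGGAAGT. The sequence under the peak itself was not used here.

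**Figure D3:**
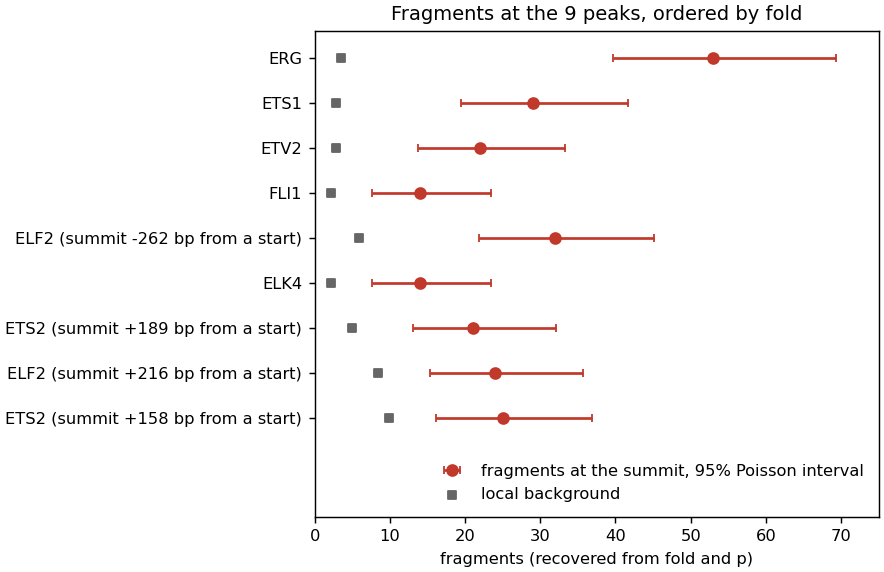
Fragments at the summit (red, with exact Poisson intervals at 95%) and local background (grey squares) at the 9 peaks, ordered by fold with the highest at the top. ERG has 53 fragments on 3.52, and the weakest folds, at ETS2 and ELF2, have 25 and 24 fragments on backgrounds of 9.86 and 8.45.

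The 9 peaks were then split by position. A peak was counted as inside a gene when its summit was within a protein-coding gene. The summit also had to be over 1 kb from the ends of protein-coding genes and from their starts in the table. Starts of noncoding genes did not count, and the FLI1 summit was 933 bp from that of SENCR. The 3 of this class (ERG, ETS1 and FLI1) had folds of 11.9, 7.86 and 4.77, and the 6 at annotated starts had folds of 5.94, 4.76, 4.68, 3.67, 2.65 and 2.40. The medians were 7.86 and 4.18, and the ranges overlapped, since FLI1 was below ETV2. Over the whole list the same classes did not differ in this way: the median fold was 4.82 for the 151 peaks of the inside class (quartiles 4.18 and 5.55) and 4.82 for the 880 at starts (4.05 and 6.09). ERG was at rank 2 and ETS1 at rank 14 of the 151, and FLI1 at rank 80.

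The order of the medians was the same for −log10 q, at 15.2 inside genes and 3.89 at starts, and for fragments at the summit, at 29 and 23. Without the ERG peak, a setting chosen after seeing the data, the difference in median fold was 2.14, against 3.69 with it. The 3 peaks inside genes include 2 genes, ETS1 and FLI1, whose starts were not compared with the peak. With peaks this few the difference is a description of these genes.

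**Figure D4:**
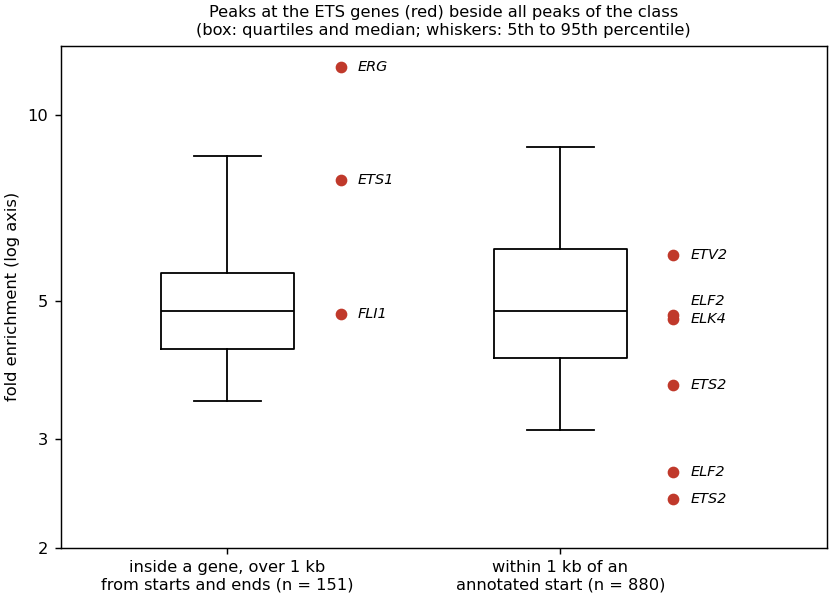
Left, fold enrichment (log axis) of the 151 peaks inside protein-coding genes and over 1 kb from the ends and annotated starts of such genes. Right, the 880 peaks within 1 kb of an annotated start of a protein-coding gene. Boxes show quartiles and median, whiskers run from the 5th to the 95th percentile, and the ETS peaks are in red. The boxes have medians of 4.82 each, ERG stands above the whiskers of the first class, and the lower peaks of ELF2 (2.65) and ETS2 (2.40) stand below those of the second.

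The genes without a peak differed in how far the nearest one was. SPI1 (chromosome 11, 47354860 to 47378547) had its nearest peak 16.1 kb beyond the upper-coordinate end, at 47394496 to 47394853. It held 25 fragments on a background of 2.87, a fold of 6.71 (4.44 to 9.79), with a −log10 q of 11.2 and rank 224, above ETV2. The summit lay in SLC39A13-AS1, a noncoding gene, 12.6 kb from SLC39A13, a zinc transporter gene and the nearest protein-coding one.

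SPI1 is known to be read towards lower coordinates, so this peak is on its upstream side. In human cells the main SPI1 enhancer, the upstream regulatory element, is known to lie about 17 kb upstream of the gene. The place 17 kb beyond the upper end was 0.886 kb from the summit. The element's own coordinates were not in the sources used here, so overlap with it was not tested. The distance of 16.1 kb is the closest outside the rule's 10 kb among ETS genes, and SPI1 counts as a gene with a peak only in the wider window of 50 kb. Of the summits inside the rule, that of FEV was the farthest, 40 bp outside its gene.

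ETV6, which encodes a repressor needed by blood stem cells, spans 245.7 kb of chromosome 12 without a listed peak. The nearest was 1206 kb away in GSG1, with a fold of 3.67. ELF1, a factor of T-cell and other blood cell genes, had its nearest peak 12273 kb away, 22 bp outside POMP, a proteasome maturation factor gene, with a fold of 7.19. Chromosome 13, which carries ELF1, held 14 of the 1564 peaks.

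The other 18 genes of the family were then counted. A peak was listed at 4 of them (22.2%), FEV, ERF, ETV3 and ETV5. With the members this makes 11 of all 28 ETS genes (39.3%) beside 9.58% of protein-coding genes, or 10.5% of genes of like length. The 28 include the 10 genes proposed with the peaks known, so the 39.3% carries no weight of its own. All 4 peaks were weak by fold: 4.19 at FEV, 3.94 at ETV3, 3.37 at ETV5 and 3.18 at ERF, each below the list's median. Their summits were 40 bp upstream of the start of FEV, 161 bp and 28 bp downstream of a start of ETV3 and of ERF, and 374 bp inside the upper end of ETV5. FEV encodes the remaining member of the ERG subfamily, known from serotonin neurons, while ERF and ETV3 encode repressors of one subfamily and ETV5 belongs to the PEA3 group.

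By subfamily, a peak was listed at each of ERG, FLI1 and FEV and at both ETS1 and ETS2. It was listed at 1 of 3 genes of the ELF group (ELF2), at 1 of 3 ternary complex factors (ELK4), at 2 of 3 in the ERF group and at 1 of 3 in the PEA3 group. None was listed at the 3 genes of the SPI group, the 3 epithelial genes ELF3, ELF5 and EHF, the pair ETV6 and ETV7, GABPA or SPDEF. Over all protein-coding genes the share with a peak was 9.58%. The counts include ERG, FLI1, ETS1, ETS2, ELF2 and ELK4, which were proposed with the peaks known, so they carry no weight of their own. With 1 to 3 genes in a subfamily these counts were not tested.

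**Figure D5:**
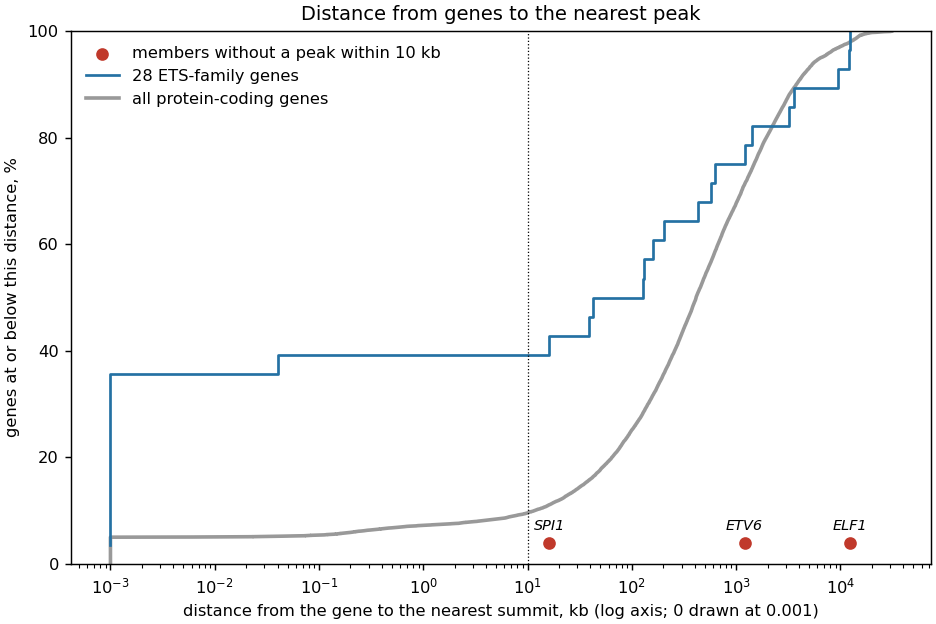
Share of genes (%) whose nearest summit is at or below a given distance in kb (log axis, with genes holding a summit drawn at the left edge), for the 28 ETS-family genes (blue) and all protein-coding genes (grey), with the 10 kb limit dotted and SPI1, ETV6 and ELF1 in red. At the limit the ETS curve is at 39.3% and that of all genes at 9.58%, and 7 of the 28 ETS genes, beside 32.3% of all genes, are over 1 Mb from a peak. The 28 include the 10 genes proposed with the peaks known.

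The pairs of neighbouring genes gave the local view. ERG and ETS2, 143.4 kb apart, held the only 3 peaks in an interval of 657.7 kb that reached 100 kb beyond the pair. ETS1 and FLI1, 97.6 kb apart, held the only 2 in 554.5 kb. No peak was listed between the genes of either pair, and none on chromosome 11 beyond the FLI1 peak at higher coordinates. In each pair 1 gene had the higher fold: ERG (11.9) over ETS2 (3.67), and ETS1 (7.86) over FLI1 (4.77). The counting intervals of ERG and ETS2 are apart, while those of ETS1 (5.35 to 11.2) and FLI1 (2.75 to 7.79) overlap. Overlap does not show that folds are equal, and the order within each pair was not tested.

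The letters of the promoters were compared last. The 14 promoter windows of 300 bases belong to 7 of the 10 genes, as FLI1, ETS1 and SPI1 have none. Among them the nearest pair of ERG largely overlap. Of the 14 windows, 12 held GGAA or TTCC, but so did 95.2% of the 22140 windows of protein-coding genes. The longer CCGGAA, on either strand, contains that core and was held by 2 of the 14, at ETV2 and ELK4, and by 21.2% of all windows. CCGGAAGT or its reverse complement ACTTCCGG, which contains both shorter motifs, was held by 1 of the 14, at ELK4, and by 5.35% of all windows.

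Peaks overlapped 921 of the 22140 windows, or 4.16%, and CCGGAA was held by 62.2% of those 921, against 19.4% of the windows without a peak. Among the 6 windows of ETS-family genes that a peak overlapped (ETV2, ELF2, ETS2, FEV, ETV3 and ERF), 1 held it, that of ETV2. A match is a run of letters and not a bound site, and these windows do not include the whole of the peaks.

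Other motifs were searched in the same way on both strands. GATA, the core of erythroid GATA factors, was held by 8 of the 14 windows, beside 43.6% of all. The E-box CANNTG was held by 8 (65.1% of all) and the GC box GGGCGG by 6 (56.3%). TGTGGT, a RUNX core, was held by 1 (11.3%) and TGACTCA, the AP-1 motif, by none (4.01%). The ERG promoter printed above, nearest to its peak, has 3 matches to GATA and 2 to GGAA.

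The ERG peak was finally set beside the peaks most like it: inside a protein-coding gene, over 1 kb from gene ends, and closest in fold on the log2 scale. Annotated starts were not considered in this choice, so these 256 peaks include those of the inside class and others near a start within a gene. Of the 256 such peaks, that of ERG among them, the 5 closest to it lay in UBXN8 (11.9), ASNS (11.6), TNPO3 (12.8), SKI (11.1) and CHMP7 (10.3). SKI encodes a corepressor of transforming growth factor signalling, ASNS asparagine synthetase, TNPO3 a nuclear import factor and CHMP7 a component of the membrane-remodelling ESCRT machinery. The peaks of ASNS and TNPO3 were within 1 kb of an annotated start, unlike that of ERG. Each had fewer fragments at the summit than ERG, from 33 to 48, on backgrounds of 2.11 to 2.82. By fold ERG was at rank 3 of the 256.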

How the data were processed

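Chromatin was precipitated with an AM-tag antibody from AM-ERG and from Vector cells and sequenced (1 library each). Per the labels' protocols, 10000000 cells were used per library, with formaldehyde at 1%, 20 minutes of micrococcal nuclease and 10 µg of chromatin. Per the submitters' processing notes, the tools were Bowtie2, MACS2 and deepTools and the build hg38. No source used here gives their versions or settings. The deposited list gives for each peak the authors' score, fold enrichment (a ratio to local background), −log10 p and −log10 q, and summit offset. The largest deposited q-value was 0.0474. Peaks on other sequences (81) were left out.

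The whole-number fragments and the background at each summit were recovered from fold, taken as fragments plus 1 over background plus 1, and the Poisson tail p-value the authors deposited. All 1645 peaks gave back their p within 0.001 in log10, and of 300 simulated peaks 300 were recovered. Gene bounds (19974 protein-coding genes) and starts (15813 of them, with strand) were RefSeq's on GRCh38.p14, and all 28 ETS genes were matched. A start site was a summit within 1 kb of such a start. Genes were named by a rule: the 10 members, other ETS genes with a peak, genes at member peaks, and the 5 peaks most like that of ERG. The members, lists and tests were chosen with earlier results of these data known. No test was made, since there is 1 list. Alternatives covered the window, the threshold, the background and the motif. The tools were SciPy 1.17.1, numpy 2.4.6, pandas 2.3.3 and matplotlib 3.10.9 under Python 3.11.15.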

Additional observations from a re-analysis of the deposited data

How the results depend on the processing

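No paired analysis was possible because only 1 peak list, without replicates, was analysed. The count of members with a peak was 7 within the gene and within 5 kb, 8 within 50 kb (SPI1 joins) and 6 among the upper 50% of peaks by fold (ETS2 leaves). Among the upper 50% by −log10 q it was 4 (ERG, ETS1, ELF2 and ETV2), beside 5.0% of all protein-coding genes, so FLI1, ELK4 and ETS2 depend on the less significant peaks. The count over the 28 ETS genes was 4 in that setting and 6 in the upper 50% by fold, against 11. The share of all protein-coding genes with a peak was 5.0% in the gene only, 17.7% within 50 kb and 5.49% in the upper 50% by fold. With the 190 peaks left out whose background exceeded 2 times the median (7.04 fragments), 7 members and 11 ETS genes had a peak. The difference in median fold, inside genes minus starts, was 2.65 with starts within 500 bp or with either gene end, and 2.14 without ERG, against 3.69. The count of 12 member windows with the core motif was 2 for CCGGAA and 1 for CCGGAAGT, as longer motifs imply. Identity of the proteins to ERG was not run, and the peaks' own sequences and exons were not used here. The depth of the libraries was not given, so the weakest site the list could show is unknown.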

Other observations

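Promoters across the ETS family gave a few values that belong to no comparison above. Over the 40 promoter windows of ETS-family genes, 7 held CCGGAA on either strand, beside 21.2% of all windows of protein-coding genes, and a listed peak overlapped 1 of these, that of ETV2. The others were 3 windows of ETV1, 2 of which largely overlap, and those of ELK4, ETV3L and GABPA. GABPA encodes an ETS factor with its own partner subunit, and its window held ACTTCCGG at positions -67 to -60, while its nearest listed peak was 3247 kb away. ELK4 and GABPA were the only 2 ETS-family windows with this longer motif, beside 5.35% of all windows, and no listed peak overlapped either.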
